A study of Caenorhabditis elegans with 4 samples.

Results

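The proteasome subunit genes of Caenorhabditis elegans were taken as all genes whose WormBase symbol starts with pas-, pbs-, rpn- or rpt- followed by a number. The rule found 33 of the 46934 genes in the count tables. Of these, 14 encode the core particle (pas-1 to pas-7 and pbs-1 to pbs-7) and 19 the regulatory particle (rpt and rpn genes). All 33 passed the filter on low counts. Whole adults were profiled by mRNA-seq in 4 libraries. The 2 control libraries came from animals with the transgene wrdSi51 on chromosome II, in which the mex-5 promoter drives TIR1 with an mTagBFP2 reporter that carries AID* and a nuclear localization signal. The 2 ATTF-6 depletion libraries came from animals with the same transgene and a GFP::tev::aid tag on attf-6 on chromosome I. TIR1 is the plant adaptor that directs AID-tagged proteins to degradation when auxin is present, and the mex-5 promoter restricts it to the germ line. Animals of both groups were grown at 20 °C and moved to 4 mM auxin at the L4 stage. By the study's account, the germ line of depleted animals was reduced. Effects of the tag and of the depletion cannot be told apart, because control animals carry an untagged attf-6. With 2 libraries a group, the p-values measure only the spread between these libraries, which may be technical.

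The proteasome degrades proteins marked with ubiquitin. Its core particle is a barrel of stacked rings, with outer rings of alpha subunits (PAS proteins), which gate the entrance, and inner rings of beta subunits (PBS proteins), some of which carry the proteolytic sites. The regulatory particle caps the barrel. Its base holds a ring of ATPases (RPT proteins) that unfold substrates, with scaffold and ubiquitin-binding RPN subunits, and its lid of further RPN subunits removes the ubiquitin chain. In worms as in other animals the proteasome acts in all tissues, and in the germ line it removes regulators of meiosis and of the oocyte-to-embryo transition. A further link is that AID-tagged proteins are themselves degraded by the proteasome.

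The libraries held about 23923400 to 32096500 counts on genes. The chi-square per gene was 3.62 between the control libraries, 44.9 between the depletion libraries and at least 274 between groups. Levels are given as CPM, counts divided by TMM-scaled library size, and log2 fold changes as depletion over control. The mRNA of attf-6, an AT-hook factor, gave 163 and 173 CPM in control libraries against 101 and 126 CPM in depletion libraries, which does not measure the protein. Markers of germ cells and of soma were present, and no listed marker was at 0. All 15 germ cell markers fell, of which 11 fell when scaled to the CCT list described below, and all 11 oocyte markers fell under every scaling, with median log2 fold changes of -1.23 and -2.46. The summed level of the germ cell markers was 3573 and 3584 CPM in the control, against 1188 and 1421 CPM upon depletion, and that of the oocyte markers was 9597 to 9607 CPM against 1547 to 1903 CPM. Of 20 somatic markers, 11 rose and 1 (lin-26) fell, and their summed level was 15626 to 15777 CPM in the control, against 24125 to 24962 CPM upon depletion. Scaled to the somatic list itself, 0 of these rose and 5 fell. Of 9 sperm markers, 8 rose, with 2 rising when scaled to the somatic list. Beside these counts, 32.1% of all genes tested fell and 30.9% rose with TMM, and 45.4% fell and 9.07% rose with the somatic list. In bulk RNA, fewer cells of a type and less RNA per cell cannot be told apart. The part of these markers' shifts in the values below was not tested.

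The 33 genes lie on the 5 autosomes in WBcel235, with 10 on chromosome I, 7 on II, 8 on III, 3 on IV and 5 on V. None is on the X chromosome, which held 13.9% of the protein-coding genes tested. The closest pair, pas-4 and pbs-7 on chromosome I, is separated by 30917 bases. The gene rpn-1 (chromosome IV, 6906420 to 6909913, minus strand) is the only member inside the piRNA clusters as the study bounds them. No member had a fractional count, the mark of reads divided among copies, in any library. On its own strand, pbs-7 overlaps K07A12.5 and rpn-8 overlaps the snoRNA gene R12E2.17. These neighbours had at most 207 and 10 counts, and how reads in the overlap were assigned was not examined.

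Proteasome subunit mRNAs took a smaller share of the libraries upon ATTF-6 depletion. Their share of all gene counts was 0.572% and 0.580% for the controls and 0.304% and 0.320% after depletion. The share of all protein-coding genes was lower as well, at 92.6% in each control and 84.7% and 87.7% after depletion. Tested with edgeR (quasi-likelihood, adjusted p below 0.05), 30 of the 33 genes fell and 1 rose, and 12 fell and 2 rose when the libraries were scaled to the CCT chaperonin genes, themselves lower upon depletion. Over all 16591 genes tested, 32.1% fell and 30.9% rose, 63.0% together. All 33 members lay above the median control level of protein-coding genes, 9.50 CPM, with a median of 158 CPM. With a filter of at least 50 counts, 29 members fell and 1 rose, against 36.6% and 40.2% of 12719 genes tested. With scaling to the CCT list, 3156 of the 16591 genes tested fell and 9099 (54.8%) rose, and with scaling to the somatic list 45.4% fell and 9.07% rose. Of the calls over all genes, 51.0% were thus lower with TMM, 25.8% with the CCT list and 83.3% with the somatic list. The median log2 fold change was -0.70 for the core particle and -0.94 for the regulatory particle. The median over all genes tested was 0.16, with quartiles of -0.83 and 0.80. By chromosome, protein-coding medians were -0.25 (I), -0.0027 (II), -0.24 (III), 0.21 (IV), 0.40 (V) and 0.36 (X). Those of the members on I to V were -0.65, -0.89, -0.96, -1.08 and -0.85. In both depletion libraries, 32 members were below both control libraries, as were 38.1% of all genes tested. The remaining member, rpn-6.2, was above them in both, as were 44.1% of all genes.

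**Figure D1:**
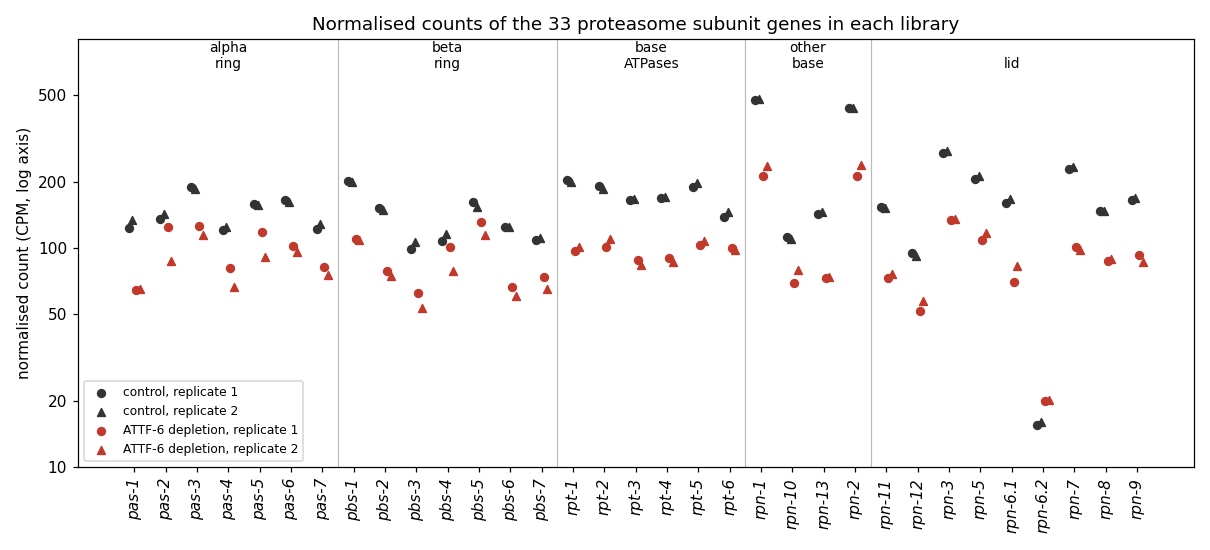
Normalised count (CPM, log axis) of each of the 33 genes in the 4 libraries, grouped by position in the complex, with control libraries in black and depletion libraries in red. The red points lie below the black ones for 32 genes and above them for rpn-6.2, at CPM scaled by TMM; scaled to the CCT list, pas-2, pas-3, pas-5, pbs-4, pbs-5, rpn-10 and rpt-6 also have fold changes above 0.

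The alpha ring forms the outer face of the core particle and opens when the regulatory particle docks. Of its 7 genes, 6 fell, with 1 falling when the libraries were scaled to the CCT list. The median log2 fold change was -0.67. The gene pas-1 (WBGene00003922, chromosome V: 14421566 to 14422618, minus strand) was at 124 and 134 CPM in the control libraries and at 64.3 and 65.3 CPM upon depletion. Its groups did not overlap, and its value of -0.99 on the log2 scale (SE, the standard error, 0.10, adjusted p = 5.3e-05) was the lowest of the core particle. It was also the alpha gene called lower under CCT scaling. By contrast, pas-2 (WBGene00003923, chromosome V: 10770368 to 10771351, plus strand) was at 136 and 143 CPM in the control, against 125 and 86.9 CPM upon depletion. Its depletion libraries lay further apart than any control pair of the members, and its value of -0.40 (SE 0.16, adjusted p = 0.055) was not called. It was called lower under 7 of the 9 alternatives that keep all 4 libraries (adjusted p from 0.00078 to 0.16) and was 0.24 when scaled to the CCT list. Its value was -0.69 without depletion replicate 1 and -0.21 without depletion replicate 2. Where a library is left out, its group has 1 library and the spread comes from the other group alone, so such fits are given here for their values and not as tests. The other alpha genes pas-3, pas-4, pas-5, pas-6 and pas-7 fell, with log2 fold changes of -0.64, -0.74, -0.60, -0.73 and -0.67, of which pas-3 and pas-5 were 0.0078 and 0.045 under CCT scaling.

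The beta ring holds the proteolytic sites, which in yeast and mammals belong to the subunits orthologous to PBS-1 (caspase-like), PBS-2 (trypsin-like) and PBS-5 (chymotrypsin-like). Of the 7 beta genes, 6 fell, with a median log2 fold change of -0.83, and 2 fell and 1 rose with scaling to the CCT list. The counts of pbs-1 (WBGene00003947, chromosome IV: 1708814 to 1709745, minus strand) were 203 and 200.0 CPM in the control, against 109.8 and 109.1 CPM upon depletion. For pbs-2 (WBGene00003948, chromosome I: 12967216 to 12968280, minus strand), the control libraries gave 152 and 149 CPM and the depletion libraries 78.9 and 74.4 CPM. Both were nearly equal between replicates and well separated between groups, with log2 fold changes of -0.88 (SE 0.10, adjusted p = 9.9e-05) and -0.97 (SE 0.10, adjusted p = 5.7e-05). The level of pbs-5 (WBGene00003951, chromosome I: 14719167 to 14720477, minus strand) was 162 and 154 CPM in the control, against 132 and 114.5 CPM upon depletion. The groups did not overlap but were closer than for the other catalytic subunits, at a log2 fold change of -0.36 (SE 0.11, adjusted p = 0.023). This call was lost under a filter of at least 50 counts (adjusted p = 0.081), and the value was 0.29 when scaled to the CCT list. The adjusted p of pbs-5 ranged from 8.5e-05 to 0.081 over the alternatives with all 4 libraries. The value was -0.34 without control replicate 1 and -0.42 without control replicate 2, fits in which the depletion libraries alone give the spread (SE 0.25 in both) and the call was lost.

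Among the noncatalytic beta genes, pbs-6 (WBGene00003952, chromosome III: 8243122 to 8244092, minus strand) was at 125 CPM in each control library and at 66.2 and 60.2 CPM upon depletion. Its log2 fold change was -0.98 (SE 0.11, adjusted p = 6.0e-05). The smallest difference of the core particle was that of pbs-4 (WBGene00003950, chromosome I: 3908747 to 3909701, plus strand), with 108 and 116 CPM in the control, against 101 and 78.4 CPM upon depletion. Depletion replicate 1 of pbs-4 was close to the control, and its log2 fold change of -0.33 (SE 0.13, adjusted p = 0.059) was not called, whereas under CCT scaling it was called higher at 0.32 (adjusted p = 0.045). Over the alternatives with all 4 libraries the adjusted p of pbs-4 ranged from 0.00037 to 0.18. Lower values than that of pbs-4 were found for pbs-3 and pbs-7, at -0.83 and -0.66, and both fell.

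**Figure D2:**
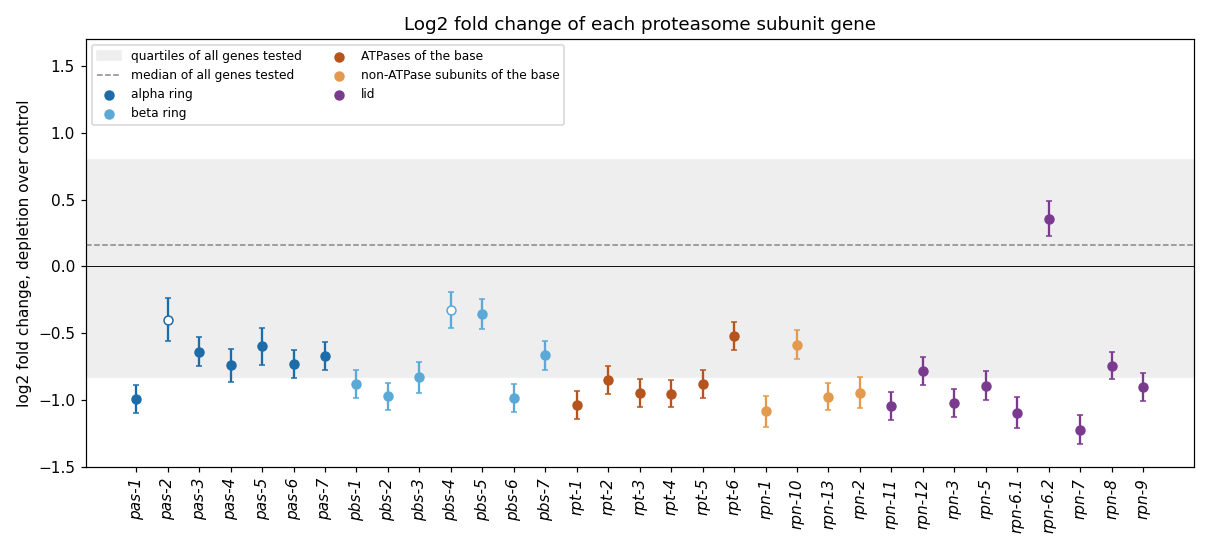
Log2 fold change of each gene, depletion over control, with its standard error as bars, filled where the adjusted p was under 0.05 and open where it was not (pas-2 and pbs-4). The grey band spans the quartiles of all genes tested, -0.83 to 0.80, and the dashed line is their median, 0.16; the points of 32 genes lie below 0 with TMM scaling, of which 7 lie above 0 with scaling to the CCT list.

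The 6 ATPases of the base unfold substrates and thread them into the core particle. All 6 fell, and 3 fell when scaled to the CCT list. The values of all but rpt-6 were close together, with log2 fold changes of -1.03 for rpt-1, -0.95 for rpt-4, -0.95 for rpt-3, -0.88 for rpt-5, -0.85 for rpt-2 and -0.52 for rpt-6. The gene rpt-6 (WBGene00004506, chromosome III: 12370456 to 12372607, plus strand) fell least, from 138 and 147 CPM in the control to 100.4 and 97.8 CPM upon depletion. Its groups did not overlap (SE 0.10, adjusted p = 0.0020). The value of rpt-6 was 0.13 with scaling to the CCT list, and its adjusted p ranged from 7.6e-06 to 0.35 over the alternatives with all 4 libraries. Without control replicate 2 its value was nearly the same at -0.50, and the call was lost with the spread of the depletion libraries alone (SE 0.24).

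The other subunits of the base are the large scaffolds RPN-1 and RPN-2 and the ubiquitin receptors RPN-10 and RPN-13. All 4 genes fell, and 2 fell when scaled to the CCT list. The level of rpn-1 was 473 and 479 CPM in the control libraries and 212 and 237 CPM upon depletion. Both scaffold genes had the highest counts of the members and long transcripts, and rpn-1 had a log2 fold change of -1.08 (SE 0.12, adjusted p = 6.2e-05). The value of rpn-2 was -0.94 and that of rpn-13 was -0.97. The receptor gene rpn-10 (WBGene00004466, chromosome I: 10730712 to 10732424, minus strand), which acts in sex determination of the hermaphrodite germ line, was at 112 and 110.2 CPM in the control, against 69.2 and 79.2 CPM upon depletion. It fell less than rpn-1, rpn-2 and rpn-13 by its point value, with a log2 fold change of -0.58 (SE 0.11, adjusted p = 0.0015) that was 0.065 under CCT scaling. The difference between the receptors was not tested.

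The lid is built around the deubiquitinase RPN-11 and its catalytically inactive partner RPN-8, with scaffold subunits that share a PCI domain. Of its 9 genes, 8 fell, 4 when scaled to the CCT list. The gene rpn-7 (WBGene00004463, chromosome IV: 9316631 to 9318632, plus strand), a scaffold subunit, had the lowest log2 fold change of all 33 members. It was at 229 and 234.8 CPM in the control, against 102 and 97.6 CPM upon depletion, a level of 43.0% of the control (log2 fold change -1.22, SE 0.11, adjusted p = 1.9e-05). It stayed between -1.26 and -1.22 when any 1 library was omitted. The gene rpn-11 (WBGene00004467, chromosome II: 4043055 to 4044546, minus strand) was at 153 CPM in each control library and at 72.8 and 75.8 CPM upon depletion. Its replicates were nearly equal, and its log2 fold change was -1.04 (SE 0.10, adjusted p = 3.6e-05). The gene rpn-12 (WBGene00004468, chromosome II: 11653124 to 11654192, plus strand), at 95.0 and 92.5 CPM against 51.6 and 57.4 CPM, had a log2 fold change of -0.78 (SE 0.11, adjusted p = 0.00023). The remaining genes rpn-3, rpn-5, rpn-8 and rpn-9 had log2 fold changes of -1.02, -0.89, -0.74 and -0.90, each of them a call.

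The lid subunit RPN-6 is encoded by a pair of paralogs on chromosome III, and their values went in opposite directions. RPN-6.1, known in C. elegans for protecting from proteotoxic stress when overexpressed, is encoded by rpn-6.1 (WBGene00004462, 6959110 to 6962001, minus strand). It was at 160 and 167 CPM in the control, against 70.2 and 83.0 CPM upon depletion, with a log2 fold change of -1.09 (SE 0.12, adjusted p = 6.3e-05). The level of rpn-6.2 (WBGene00010309, 8999817 to 9001999, minus strand) was 15.5 and 16.1 CPM in the control, against 20.1 and 20.4 CPM upon depletion. Both depletion libraries of rpn-6.2 were above the control, with a log2 fold change of 0.36 (SE 0.13, adjusted p = 0.040), whereas it was -0.29 (adjusted p = 0.10) when scaled to the somatic list. The call was lost in 5 further settings with all 4 libraries, including DESeq2 (adjusted p = 0.27) and the replicate block (adjusted p = 0.062), over which its adjusted p ranged from 5.0e-05 to 0.27. It was also lost in the fits with 1 control library, at values of 0.31 and 0.36. Within each library, which does not depend on scaling, rpn-6.2 made up 8.86% and 8.79% of the CPM of the pair in the control and 22.3% and 19.7% upon depletion. The sperm markers given above, 8 of which rose, had a summed level of 102 to 105 CPM in the control, against 159 to 173 CPM upon depletion. This direction, that of rpn-6.2 with TMM, was shared by 11 of the 20 somatic markers and 30.9% of all genes tested. With scaling to the somatic list, the sperm markers had a median of 0.30, while rpn-6.2 was at -0.29. The part of the sperm or somatic markers' shifts in the value of rpn-6.2 was not tested.

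To compare levels between genes, CPM were divided by the length of the merged exons. In the control, pbs-1 had the highest level at 245 ± 2.50 CPM per kb (SD, n = 2), followed by pas-3 at 210.3 ± 3.05 and pas-5 at 185 ± 0.715. The next genes in order, pas-6 and pas-2, at 165.5 ± 1.54 and 165.4 ± 5.79 CPM per kb, did not differ beyond their spread. The other core genes lay between 121 and 149 CPM per kb. The regulatory genes other than rpn-6.2 lay between 86.3 CPM per kb for rpn-10 and 150.1 CPM per kb for rpn-1. At 10.2 ± 0.252 CPM per kb, rpn-6.2 was far below the others. Across the 33 genes, levels per kb in the control and upon depletion had a Spearman rho of 0.84, a description over genes that share libraries. Upon depletion, pas-3 and pbs-1, at 135 ± 8.75 and 133 ± 0.650 CPM per kb, no longer differed beyond their spread.

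**Figure D3:**
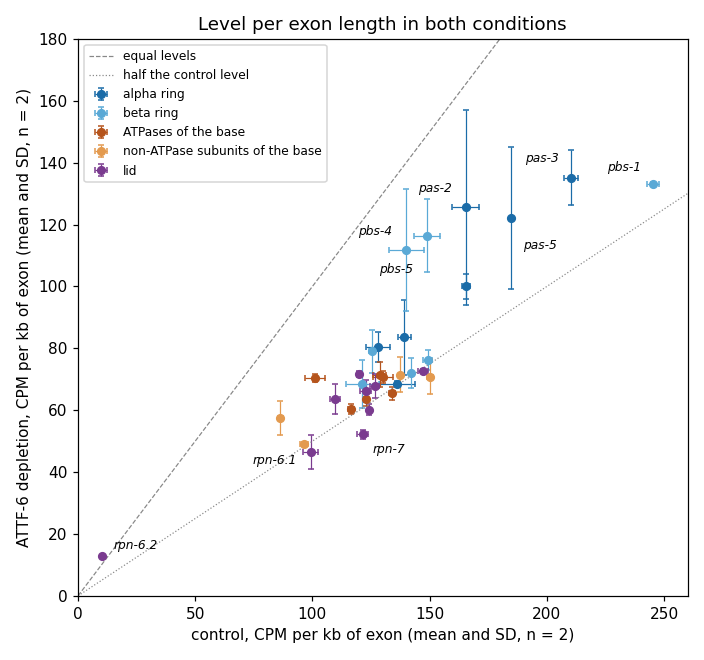
Level per kb of exon in the control (horizontal axis) against ATTF-6 depletion (vertical axis), as means with SD of 2 libraries, with dashed and dotted lines for equal levels and for a depletion level at 0.5 of the control. Most regulatory genes lie close to the dotted line, with rpn-10 and rpt-6 above it, while core genes with high levels such as pas-2 and pas-5, with wide bars upon depletion, lie above it, and rpn-6.2 sits alone near the origin.

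The core and regulatory particles were then compared within each library, where scaling has no effect. The summed CPM of the core genes was 0.538 of that of the regulatory genes in each control library. Upon depletion it was 0.700 in replicate 1 and 0.582 in replicate 2. Both depletion libraries were above the control, and they differed more from each other (SD of the log2 ratio 0.19) than the control libraries did. The log2 ratio was higher upon depletion by 0.25 on average, by 0.11 without depletion replicate 1 and by 0.38 without depletion replicate 2. An exact permutation test of 2 against 2 libraries cannot fall below p = 0.33, and none was run.

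Core and regulatory genes also differ in length, with exons of 801 to 1059 bases in the core and 855 to 3171 bases in the regulatory particle. Of the 14 core genes, 13 were lower in depletion replicate 2 than in replicate 1, with pas-1 as the exception, and the median log2 ratio of replicate 2 over 1 was -0.16. Of the 19 regulatory genes, 14 were higher in replicate 2, with a median of 0.056. The largest such difference was that of pas-2, at -0.52. Over the 33 genes, exon length and this replicate difference had a Spearman rho of 0.66. Between exon length and log2 fold change, rho was -0.51 over the 33 genes, -0.48 within the regulatory particle and -0.18 within the core. Among 2025 other protein-coding genes in the length range of the core, the median replicate difference was -0.13 and the median log2 fold change was 0.25. Among 7030 others between 1234 and 3171 bases, the range of the regulatory genes other than rpn-12, these were 0.043 and 0.068. Over the full regulatory range of 855 to 3171 bases, with 10121 others, they were 0.0049 and 0.12. The short regulatory gene rpn-12, with 855 bases of exon, had a replicate difference of 0.16 and a log2 fold change of -0.78, the values of a single gene. The part of length in the difference between the particles was not tested.

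**Figure D4:**
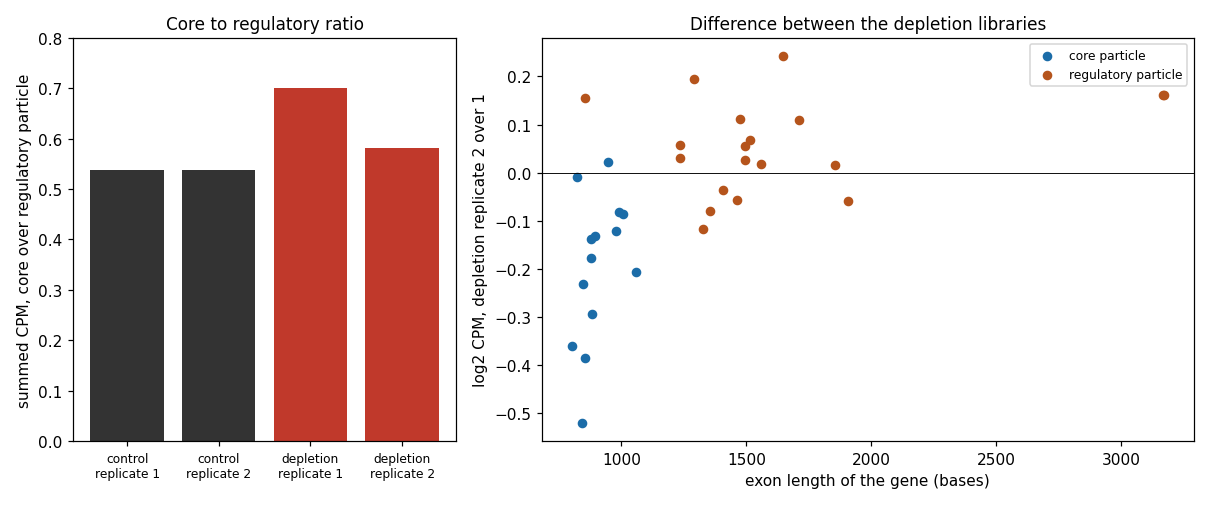
Left, summed CPM of the 14 core genes divided by that of the 19 regulatory genes in each library, 0.538 in both controls, 0.700 and 0.582 upon depletion. Right, log2 ratio of depletion replicate 2 over replicate 1 for each gene against its exon length in bases, where 13 of 14 core genes lie below 0 and 14 of 19 regulatory genes above it.

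The size of the difference depended on the scaling of the libraries. The core median moved from -0.70 to -1.34 when libraries were scaled to the summed counts of the somatic list and to -0.053 when scaled to the CCT list. The regulatory median moved to -1.59 and to -0.30. The median of all genes moved with them, to -0.48 and to 0.81. Because scaling shifts every gene alike, the distance of the members from the median of all genes is nearly fixed by construction across scalings, at -0.86 for the core and -1.10 for the regulatory particle with TMM. Other settings can move it, and it was -0.74 and -0.98 with at least 50 counts, and -0.74 and -1.05 without depletion replicate 2.

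**Figure D5:**
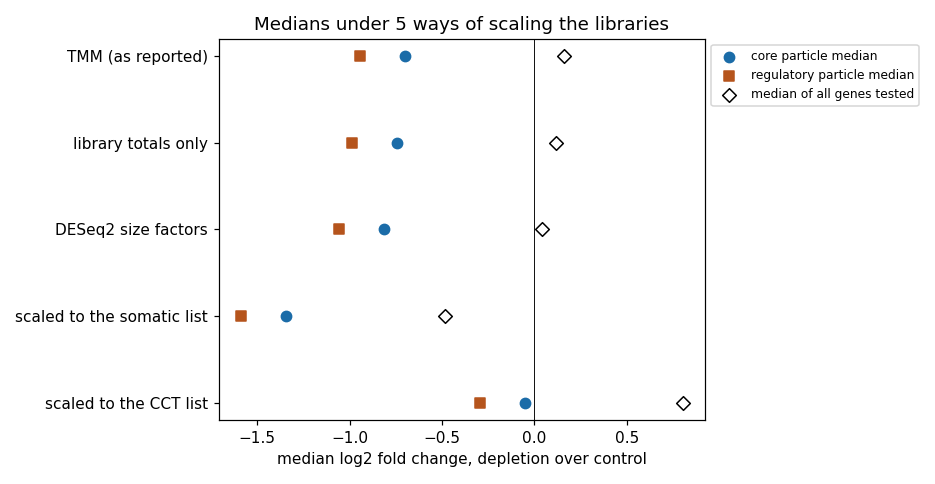
Median log2 fold change of the 14 core genes (circles), the 19 regulatory genes (squares) and all genes tested (diamonds) under 5 ways of scaling the libraries. The distance between the symbols is nearly fixed by construction, and all 3 shift together, from -1.34, -1.59 and -0.48 with the somatic list to -0.053, -0.30 and 0.81 with the CCT list.

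Genes that act with the proteasome were described by lists. Of 14 partners and regulators, 12 fell and 2 were not called, with a median log2 fold change of -0.64, whereas scaling to the CCT list gave 4 lower and 4 higher. Of all 16591 genes tested, 32.1% fell and 30.9% rose with TMM. With the CCT list, 3156 of them fell and 54.8% rose, so a higher call under that scaling was common over all genes. These shares are also the background for the counts of the lists that follow. The lowest value was -1.46 (adjusted p = 7.6e-06) for akir-1, whose human ortholog acts in nuclear import of proteasomes, which was at 153 and 155 CPM in the control, against 54.6 and 57.7 CPM upon depletion. The next was -1.22 for rad-23, which shuttles ubiquitylated proteins to the proteasome. Values nearest to 0 were those of png-1 and ubh-4, at -0.16 each, which were not called. These encode a peptide N-glycanase and a deubiquitinase that binds the regulatory particle, and scaling to the CCT list turned both above 0.

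Of 10 genes for ubiquitin, its activating enzyme and the CDC-48 segregase with its cofactors, 9 fell, with a median level at 49.9% of the control, and with CCT scaling 6 fell and 1 rose. The lowest value was -1.31 for ufd-3 and the highest 0.0090 (adjusted p = 0.96) for ubq-2, which encodes ubiquitin fused to a ribosomal protein. The polyubiquitin gene ubq-1 had a value of -0.53. The segregase gene cdc-48.1 had a value of -1.28.

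Other complexes of fixed composition were set beside the proteasome. The COP9 signalosome is related in architecture to the lid, and 6 of the 8 listed symbols were found. All 6 genes fell, 5 of them with CCT scaling, and their median was -1.14, against -0.90 for the 9 lid genes. Their values ranged from -1.24 for csn-4 to -0.78 for csn-2. The CCT chaperonin folds actin and tubulin, and 7 of its 8 genes fell, with a median of -0.77 between those of the core and regulatory particles. The lowest was -0.91 for cct-4 and the highest -0.27 for cct-7 (adjusted p = 0.054), and scaled to their own sum 0 fell and 2 rose. These medians describe the lists, and differences between complexes were not tested.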

How the data were processed

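RNA was depleted of rRNA. Per the labels and the study's methods, reads were trimmed with TrimGalore and aligned to WormBase WS279 with STAR, allowing at most 10 alignments. Pairs with an orphan mate were removed. The authors deposited expected counts per gene from featureCounts, assigned by strand, with multi-mapped reads divided and no normalization. Versions are not given in the sources used here. The titles call the libraries small RNA, while the protocol and files are those of mRNA-seq. A count table of the study lists control replicates 1 and 2 exchanged, and the labels were followed. The 181 transposon rows were left out. Symbols came from a WormBase name table, and positions and exon lengths from the Ensembl 115 annotation of WBcel235.

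Rounded counts were fitted with edgeR 4.0.16 (R 4.3.3), using filterByExpr (minimum count 10, minimum total 15), TMM, a prior count of 0.125 and the two-sided quasi-likelihood test, with p-values adjusted by Benjamini-Hochberg across all genes tested and called at 0.05. Every adjusted p is from this test unless DESeq2 1.42.0 is named. CPM use TMM-scaled library sizes. Standard errors were derived as log2 fold change over the root of F. The fits were also run on simulated counts. These had equal spread in both groups and few changed genes, unlike the data here, so they do not test the calls made here. The members and lists were chosen with earlier results of these data known. Every member was named, and values per library were given for the catalytic genes, rpn-6.1, rpn-6.2, rpn-10, rpn-11, rpn-12 and the 3 lowest and 3 highest log2 fold changes of each particle. Alternatives covered the test, scaling, filters, fractional counts, a replicate block and each library left out.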

Additional observations from a re-analysis of the deposited data

How the results depend on the processing

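Over the alternatives with all 4 libraries other than the CCT list, 29 to 32 proteasome genes were called lower, against 30. Scaling to the CCT list left 12 (3 of the core and 9 of the regulatory particle) and called 2 higher, 1 of them in the core. The calls over all genes moved as well. The share called lower was 32.1%, against 36.6% with at least 50 counts and 45.4% with the somatic list. With the CCT list, 3156 of 16591 genes were lower. A stable count of members alone thus does not set them apart from all genes. The single call of a higher gene, rpn-6.2, was 0 with DESeq2, DESeq2's size factors, library totals, the somatic list, no filter and the replicate block, and 0 to 1 with each library left out. A group left with 1 library takes its spread from the other group alone, so calls made or lost there are not tests with replication in both groups. The core median was -0.82 with DESeq2 and with its size factors and -0.58 with at least 50 counts. It was -1.34 with the somatic list and -0.053 with the CCT list. The regulatory median was -1.06 with DESeq2 and with its size factors and -0.83 with at least 50 counts. It was -1.59 with the somatic list and -0.30 with the CCT list. With the CCT list the values of pas-3 (0.0078), pas-5 (0.045), rpn-10 (0.065), rpt-6 (0.13), pas-2 (0.24), pbs-5 (0.29) and pbs-4 (0.32) were above 0, and with the somatic list rpn-6.2 was at -0.29. Over all genes the median was 0.16, and 0.043 under DESeq2's size factors. The correlation of same-numbered deviations was -0.011 over 16591 genes. With 2 libraries a group, it cannot show whether the replicate numbers pair the libraries. With the replicate block, 32 proteasome genes were called lower and pas-2 and pbs-4 gained a call. With 2 libraries a group the precision is low, and the standard error was largest for pas-2 (0.16), whose depletion libraries differed most.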
